A study of Oryza sativa with 12 samples.

Results

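The regions described here were the enriched regions, or peaks, of the histone variant H2A.Z and of histone H3 that lay within 3 Mb of a rice centromere. Peaks of the 4 libraries of an antibody were merged into regions, and a region was kept where its midpoint fell inside that window. The centromere positions were 16.7 Mb on chromosome 1, 13.6 Mb on chromosome 2, 19.4 Mb on chromosome 3, 12.4 Mb on chromosome 5 and 15.3 Mb on chromosome 6. On the remaining chromosomes used they were 12.1 Mb on chromosome 7, 12.9 Mb on chromosome 8, 2.8 Mb on chromosome 9, 12 Mb on chromosome 11 and 11.9 Mb on chromosome 12. Chromosomes 4 and 10 were left out. In all, 16825 of 127924 merged regions were pericentromeric by this rule. They comprised 4682 of 53017 H2A.Z regions (8.83%) and 12143 of 74907 H3 regions (16.2%). The windows spanned 59.8 Mb, or 19.02% of the length of these 10 chromosomes, and the remaining 255 Mb of the same chromosomes served as the comparison.

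Centromeres of rice are built on nucleosomes that carry a centromere-specific form of H3, and the flanking pericentromeric chromatin is rich in repeats and transposable elements and poor in active genes. H2A.Z is a variant of the core histone H2A that in plants lies mainly at the start of genes and along the bodies of genes of low or variable expression, and it is known to be depleted from DNA-methylated heterochromatin. Canonical H3 is part of nearly every nucleosome, so its ChIP signal serves as a reference for nucleosome content. OsChz1 is a rice histone chaperone that handles dimers of H2A or H2A.Z with H2B.

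Seedlings of the rice cultivar labelled NIP (wild type) and of the oschz1 mutant, a knockout line made by genome editing, were grown for 30 days under 14 h of light at 30 °C and 10 h of dark at 28 °C. Each genotype was assayed in 2 H2A.Z, 2 H3 and 2 input libraries, and each input served as the control of a single H2A.Z and a single H3 library. Whole seedlings were used, so fewer cells that carry a mark and less of the mark per cell cannot be told apart. A single mutant allele was sampled, and the mutation itself was not checked in these peak tables. The H2A.Z libraries held between 16886473 and 22192417 reads in peaks and the H3 libraries between 9179714 and 14466571. Spreads below are SD over the 2 libraries of a group (n = 2), except where marked SE. Permutation p-values of library-level values measure the spread between these libraries only. The SE and edgeR p-value of a single region come from a fit that also draws on the spread over all regions tested.

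H2A.Z peaks were sparse around the centromeres. In the pericentromeric windows the density was 70.2 and 66.5 peaks per Mb in NIP replicates 1 and 2 and 69.4 and 68.6 in oschz1 replicates 1 and 2. On the rest of the same chromosomes the corresponding densities were 151 and 146 peaks per Mb in NIP and 148 and 148 in oschz1. In the 4 libraries the pericentromeric density was thus 0.457 to 0.471 times the density elsewhere. Between 9.69 and 9.95% of the H2A.Z peaks of these chromosomes, and between 8.20 and 8.29% of the reads in them, fell in the 19.02% of the length that is pericentromeric.

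The bases inside H2A.Z peaks were fewer still, as the peaks were also narrower. H2A.Z peaks covered 7.71 and 7.31% of the windows in NIP and 8.05 and 7.92% in oschz1. Elsewhere they covered 20.4 and 19.7% in NIP and 21.2 and 21.0% in oschz1. The mean width of a pericentromeric H2A.Z peak was 1098 and 1099 bp in NIP and 1159 and 1154 bp in oschz1, against 1351 and 1351 bp and 1437 and 1419 bp elsewhere. The 4 libraries of each zone did not overlap in any of these measures. On the log2 scale the pericentromeric to other ratio averaged −1.11 for density, −1.41 for coverage and −0.30 for width. Each had a two-sided exact sign-flip permutation p of 0.125, the smallest that 4 libraries allow.

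H3 peaks showed the opposite order. Their density was 151 and 146 peaks per Mb around the centromeres in NIP and 145 and 134 in oschz1, and 143 and 135 elsewhere in NIP and 141 and 130 in oschz1. They covered 17.5 and 15.8% of the windows in NIP and 16.6 and 14.9% in oschz1. Elsewhere they covered 14.9 and 13.5% in NIP and 14.6 and 13.1% in oschz1. Within each of the 4 libraries the pericentromeric value was the higher. Across libraries the ranges of density overlapped, whereas the lowest pericentromeric coverage (14.93%) was just above the highest elsewhere (14.88%). Replicate 1 of each genotype had the higher H3 coverage and also more reads in H3 peaks than replicate 2, and the part of depth in coverage was not tested.

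Pericentromeric H3 peaks were also wider than H3 peaks elsewhere. The mean width was 1160 and 1087 bp around the centromeres in NIP and 1142 and 1114 bp in oschz1, against 1037 and 996 bp and 1030 and 1008 bp elsewhere. The log2 ratio of pericentromeric to other averaged 0.06 for H3 density, 0.21 for coverage and 0.14 for width, again with an exact permutation p of 0.125 each. Pericentromeric regions held between 19.4 and 20.2% of the H3 peaks of the 10 chromosomes, close to their 19.02% share of the length.

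**Figure D1:**
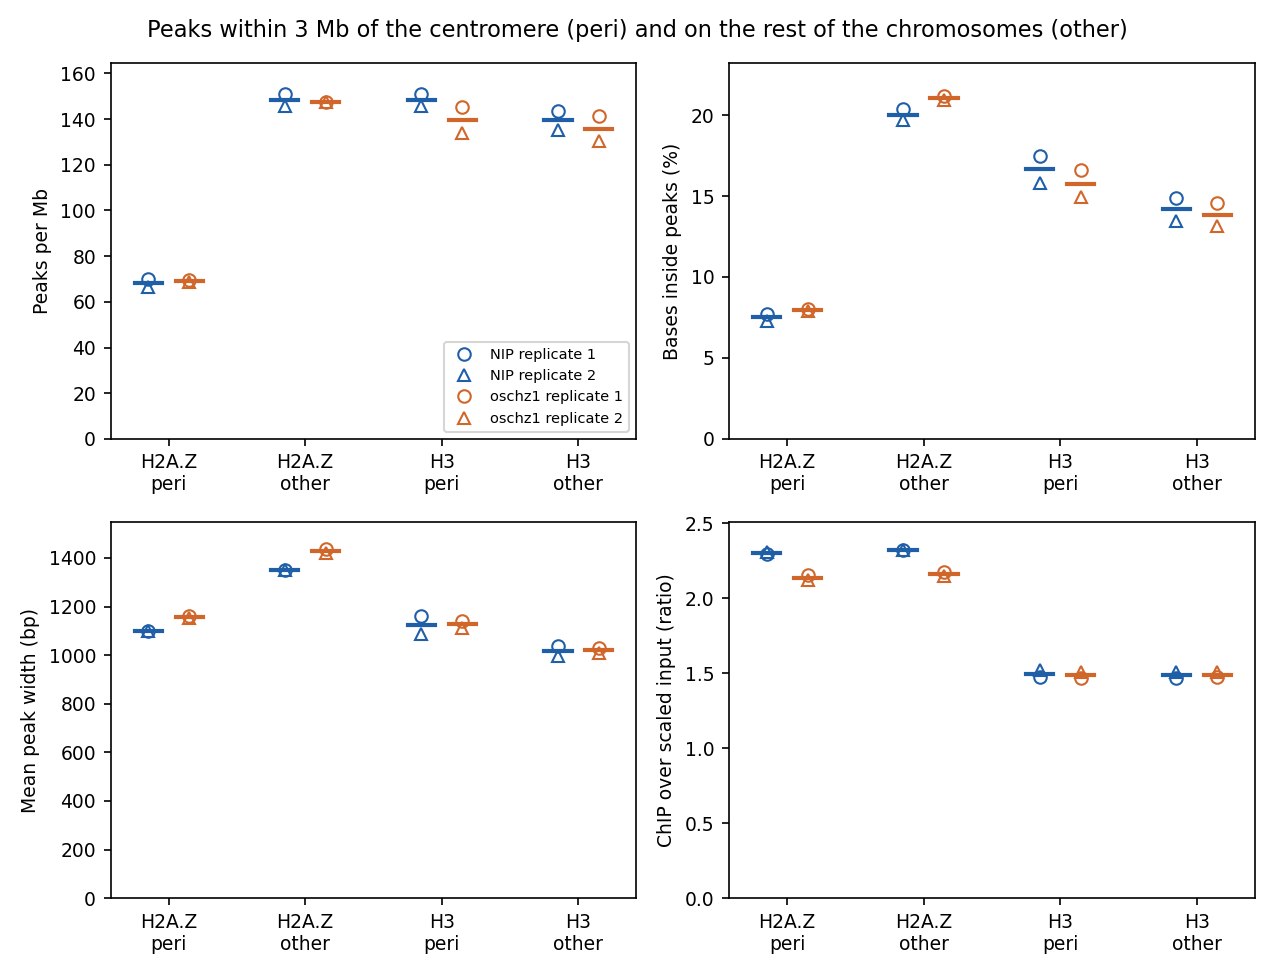
Peak density, bases inside peaks, mean peak width and ChIP over scaled input for H2A.Z and H3 within 3 Mb of the centromere and on the rest of the 10 chromosomes; points are libraries and bars are means of 2 replicates. H2A.Z density around the centromere sits between 66.5 and 70.2 peaks per Mb against 146 to 151 elsewhere, whereas ChIP over input is nearly level between the zones.

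The contrast between the antibodies was tested as the log2 ratio of pericentromeric to other in 4 H2A.Z against 4 H3 libraries. H2A.Z minus H3 was −1.17 for density, −1.62 for coverage and −0.45 for width. In each measure the 4 H2A.Z libraries lay below the 4 H3 libraries, at an exact two-sided permutation p of 0.0286. This is the smallest p that an unpaired permutation of 4 against 4 libraries allows. Over the 28 library-level comparisons the smallest Benjamini-Hochberg adjusted p of these permutation tests was 0.267, so none passed 0.05 after adjustment. The H2A.Z and H3 libraries of a genotype and replicate number shared an input, so the 2 sets of libraries were not fully independent. The permutation did not take this pairing into account.

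Enrichment within the peaks differed far less between the zones than their number. ChIP over input is the sum of ChIP reads over the sum of scaled input reads in recurrent regions, counted inside each library's own peaks. Recurrent regions are those found in each of the 4 libraries of the antibody. They were 3209 of the 4682 H2A.Z and 4235 of the 12143 H3 pericentromeric regions. For H2A.Z the ChIP over input was 2.3 and 2.31 around the centromeres in NIP and 2.15 and 2.12 in oschz1, against 2.32 and 2.32 and 2.18 and 2.15 elsewhere. The pericentromeric value was between 0.988 and 0.997 times the other value in the 4 libraries (mean log2 ratio −0.01, exact permutation p 0.125). For H3 it was 1.48 and 1.52 in NIP and 1.47 and 1.51 in oschz1 around the centromeres, and 1.47 and 1.51 in both genotypes elsewhere (mean log2 ratio 0.00, exact permutation p 0.625).

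The direction of this small H2A.Z difference between the zones depended on which peaks were kept. It was 0.02 on the log2 scale with peaks of fold at least 2 and 0.02 with q-values of at most 1e-10. Input reads per kb of peak were 1.03 times as high around the centromeres as elsewhere for H2A.Z in all 4 libraries, and between 0.927 and 0.938 times as high for H3. The part of the input in the comparison was not tested.

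H2A.Z coverage was lowest next to the centromere, nearly level from 1.5 to 3.5 Mb and higher beyond. In bins of 0.5 Mb it was 3.57% in NIP and 3.75% in oschz1 within 0.5 Mb of the centromere position, 6.49 and 6.86% from 0.5 to 1 Mb, and 8.24 and 8.63% from 1 to 1.5 Mb. From 1.5 to 3.5 Mb it lay between 8.72 and 9.67% in both genotypes, and it reached 11.9% in NIP and 12.7% in oschz1 between 5.5 and 6 Mb. The number of H2A.Z regions ran a similar course, from 41.4 per Mb in the innermost bin to 93.1 per Mb between 2.5 and 3 Mb.

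H3 coverage was instead highest a short way out from the centromere. It was 16.6% in NIP and 15.03% in oschz1 within 0.5 Mb, 18.4 and 17.5% between 1 and 1.5 Mb, and 15.6 and 14.9% between 2.5 and 3 Mb. From 3 to 6 Mb the mean over the libraries lay between 14.0 and 15.01%. In the innermost bin both oschz1 libraries, at 15.7 and 14.3%, lay below both NIP libraries, at 17.3 and 15.97%. Such full separation did not happen in the other 5 bins inside the window nor in the 6 bins outside it. Lower H3 coverage in oschz1 was not confined to the innermost bin, however. Each oschz1 library was below the NIP library of the same replicate number in every bin inside the window, as at 17.2 against 18.4% and 15.55 against 16.4% from 0.5 to 1 Mb. Outside the window this held in every bin except 5 to 5.5 Mb. ChIP over input hardly moved with distance for H2A.Z, between 2.28 and 2.32 in NIP and between 2.11 and 2.16 in oschz1 over the 6 bins inside the window.

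**Figure D2:**
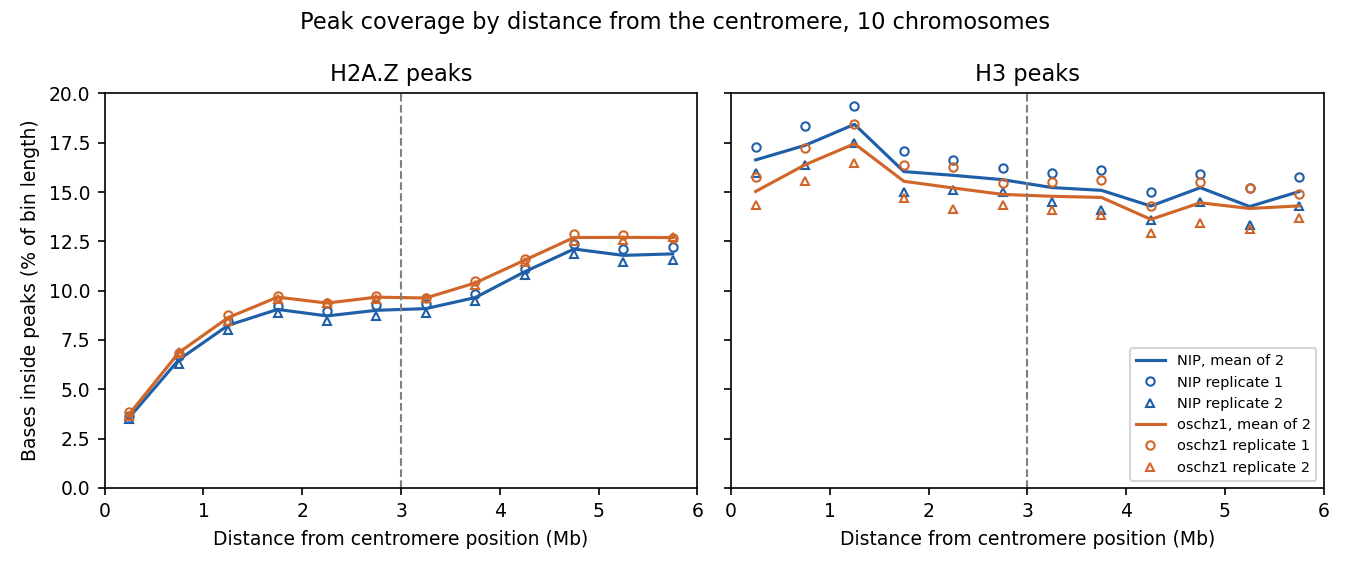
Bases inside H2A.Z and H3 peaks as a percent of each 0.5 Mb bin, against distance from the centromere position, on 10 chromosomes; lines are means of 2 replicates, points are libraries and the dashed line marks the 3 Mb limit. H2A.Z coverage climbs from 3.57% in NIP in the innermost bin to 9.0% at the limit, whereas H3 coverage peaks at 18.4% between 1 and 1.5 Mb.

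The reduction of H2A.Z held on each chromosome. Region density, coverage and mean width were lower in the window than on the rest of the chromosome on 10 of 10 chromosomes. The ratio of coverage ran from 0.295 on chromosome 9 to 0.530 on chromosome 12. Coverage within the window was lowest on chromosome 9, at 5.96% over the 4 libraries, and highest on chromosome 3, at 10.4%. The chromosomes differed more outside the window, from 13.7% on chromosome 12 to 26.6% on chromosome 3. Chromosome 12 had both the lowest coverage outside and the mildest contrast, whereas chromosome 9, with the strongest contrast, had 20.2% outside. A link between coverage outside the window and the contrast was not tested. ChIP over input was lower in the window on 6 of 10 chromosomes, with ratios from 0.942 on chromosome 12 to 1.02 on chromosome 3.

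H3 was less uniform among chromosomes. H3 coverage was higher in the window on 9 of 10 chromosomes, with chromosome 5 the exception at a ratio of 0.949 and chromosome 3 the highest at 1.34. The mean width of H3 peaks was higher on 10 of 10, from 1.04 times on chromosome 7 to 1.18 times on chromosome 3. The density of merged H3 regions was higher on 6 of 10 only, from 0.866 times on chromosome 5 to 1.18 times on chromosome 6. Chromosome 3 had both the highest H3 and the highest H2A.Z coverage within its window, at 19.5 and 10.4%.

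**Figure D3:**
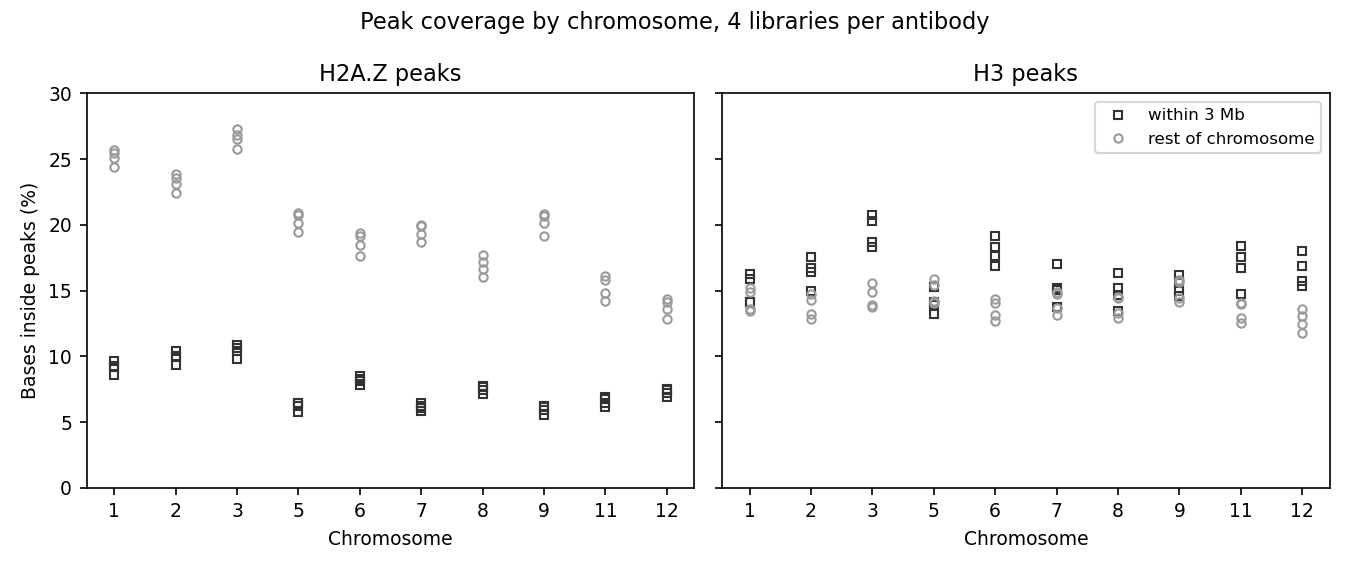
Bases inside H2A.Z and H3 peaks, as a percent of length, within 3 Mb of the centromere (squares) and on the rest of each chromosome (circles), with 4 libraries a chromosome. H2A.Z squares lie below the circles on 10 of 10 chromosomes, and the mean H3 coverage is higher within 3 Mb on 9 of 10.

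The 1 Mb bin with the least H2A.Z coverage lay within 3 Mb of the centromere on 9 of 10 chromosomes, the exception being chromosome 6, where it lay 3.2 Mb away. For H3 this was so on none of the 10, and the bin with the most H3 coverage lay in the window on 7 of 10. The longest stretch of a chromosome without an H2A.Z region had its midpoint in the window on 6 of 10 chromosomes, and that without an H3 region on 7 of 10. The longest H2A.Z-free stretch of all, 586 kb on chromosome 6, had its midpoint 3.21 Mb from the centromere position, outside the window. The emptiest H2A.Z bin was on chromosome 11 between 12 and 13 Mb, where 1.58% of bases lay inside peaks, next to the centromere position of 12 Mb. It also held the longest stretch without an H2A.Z region inside any window, 556 kb from 12011401 to 12567600. H3 had its own longest stretch there, 238 kb from 12317601 to 12555400. On chromosome 7 an H2A.Z-free stretch of 411 kb, from 11914001 to 12325000, spanned the centromere position and contained an H3-free stretch of 162 kb.

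Over the windows, the median distance between neighbouring H2A.Z regions was 5.4 kb, against 2.4 kb elsewhere. For H3 it was 2.2 kb against 2.4 kb. Gaps of over 100 kb between H2A.Z regions numbered 38 of 4672 around the centromeres and 20 of 40668 elsewhere. Mappability and gaps in the assembly were not measured here.

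Broad H2A.Z regions were rarer around the centromere and broad H3 regions more frequent. Merged H2A.Z regions of 4 kb or more made up 95 of 4682 (2.03%) in the windows and 2448 of 40687 (6.02%) elsewhere. For H3 they made up 375 of 12143 (3.09%) and 747 of 50901 (1.47%). Narrow regions of 400 bp or less were 12.7% of pericentromeric and 10.1% of other H2A.Z regions, and 16.9 and 18.0% of H3 regions. The median H2A.Z region was 1000 bp wide around the centromere and 1200 bp elsewhere, and the median H3 region 1000 bp in both zones.

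Recurrence among libraries was similar in the 2 zones. A peak in all 4 libraries was found for 68.5% of pericentromeric and 72.1% of other H2A.Z regions, and for 34.9 and 33.4% of H3 regions. H2A.Z regions with a peak in both oschz1 libraries and in neither NIP library numbered 121 (2.58%) around the centromere, and the converse 79 (1.69%), against 2.23 and 1.63% elsewhere. For H3 the order was reversed, with 397 (3.27%) found in both oschz1 libraries only and 565 (4.65%) in both NIP libraries only. Elsewhere on the chromosomes these H3 classes were 4.09 and 4.28%. These classes rest on calls that were present or absent in single libraries, and the difference between them was not tested.

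Pericentromeric H2A.Z peaks met an H3 peak about as often as H2A.Z peaks elsewhere. By an overlap of at least 1 bp within a genotype and replicate, 44.5 to 51.3% of pericentromeric H2A.Z peaks overlapped an H3 peak, against 44.2 to 48.3% elsewhere. In the other direction the zones separated, as 23.2 to 24.7% of pericentromeric H3 peaks overlapped an H2A.Z peak, against 52.8 to 54.3% elsewhere. Most pericentromeric H3 peaks thus lay outside H2A.Z peaks in every library. H2A.Z peaks were also sparser in the windows, and the overlap to expect from their density alone was not computed.

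Pericentromeric H2A.Z peaks that met an H3 peak had more enrichment and were wider than those that did not. Enrichment is here the median ChIP fold against input over all peaks of a library, not the summed ratio in recurrent regions. This median fold was 2.24 to 2.45 against 1.80 to 1.88 in the 4 libraries, and the mean width 1240 to 1296 bp against 933 to 1040 bp. The same order was found elsewhere, at 2.29 to 2.49 against 1.82 to 1.91 and 1606 to 1682 bp against 1099 to 1215 bp. Pericentromeric H3 peaks that met an H2A.Z peak were on the contrary the narrower, at 993 to 1050 bp against 1115 to 1196 bp, with a median fold of 1.42 to 1.47 against 1.51 to 1.58. Elsewhere the widths of these H3 peaks overlapped, at 1006 to 1042 bp and 984 to 1032 bp. The median fold had the same order elsewhere, at 1.42 to 1.47 for H3 peaks that met an H2A.Z peak against 1.54 to 1.62. Both antibodies of a pair share an input, and the part of the input in these values was not tested.

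The study compared the genotypes to learn whether the loss of OsChz1 alters H2A.Z in chromatin. Around the centromeres, H2A.Z ChIP over input averaged 2.3 ± 0.0111 in NIP and 2.14 ± 0.0208 in oschz1 (SD, n = 2), or −7.18%. The bases counted could differ between libraries, as reads came from each library's own peaks, and H2A.Z peaks were on average wider in oschz1. Each oschz1 library was lower than either NIP library, at an exact two-sided permutation p of 0.333, the smallest possible with 2 against 2. On the rest of the chromosomes the difference was −6.77%. The log2 ratio of pericentromeric to other differed between the genotypes by −0.0063 (exact permutation p 0.667), with SDs of 0.00836 in NIP and 0.00118 in oschz1, and the libraries of the genotypes overlapped. The lower enrichment in oschz1 was therefore not shown to differ in size between the 2 zones. In 702 pericentromeric regions of identical extent in the 4 libraries, the bases counted were the same. Of these, 3 rose and 29 fell in ChIP reads by the edgeR test described below (0.427 and 4.13%, against 0.352 and 4.0% of all such regions).

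The same order was found on each chromosome and at each distance. Both oschz1 libraries had a lower H2A.Z ChIP over input than both NIP libraries in the window of 10 of 10 chromosomes, and also on the rest of 10 of 10. By distance it was so in 6 of 6 bins inside and 6 of 6 bins outside the window. On chromosome 8, which had the highest value over the 4 libraries, the NIP libraries were at 2.40 and 2.38 and the oschz1 libraries at 2.21 and 2.16. On chromosome 12, the lowest, they were at 2.20 and 2.16 in NIP and 2.06 and 2.07 in oschz1. Chromosomes of a library are not replicates of a genotype, and no test was made over them.

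**Figure D4:**
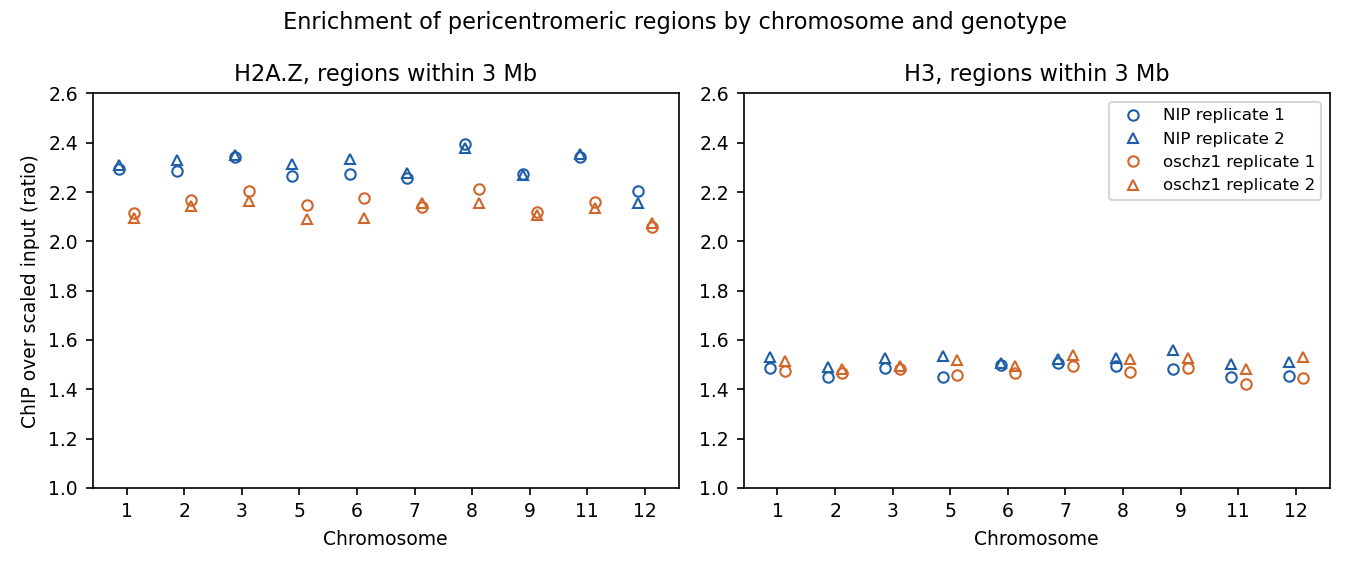
ChIP over scaled input in recurrent pericentromeric regions, by chromosome, for H2A.Z and H3; points are libraries, and the vertical axis starts at 1. H2A.Z values of oschz1 lie below those of NIP on 10 of 10 chromosomes, and the H3 values of the genotypes overlap on 9 of 10.

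H2A.Z coverage was in the opposite direction. It was 7.51 ± 0.283% of the windows in NIP and 7.99 ± 0.0906% in oschz1 (SD, n = 2), 6.36% more, with an exact permutation p of 0.333. Elsewhere the difference was 5.21%. Peaks were on average 1098 ± 0.459 bp wide in NIP and 1157 ± 3.61 bp in oschz1, 5.30% more, with 5.70% elsewhere. Density differed by 1.0% around the centromeres, less than the spread between the NIP replicates. Without NIP replicate 2 the coverage difference was 2.78 kb per Mb instead of 4.78 kb per Mb. Coverage was higher in both oschz1 libraries in the windows of 10 of 10 chromosomes. With peaks of fold at least 2 only, the coverage difference was −3.09 kb per Mb.

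H3 enrichment in the same windows overlapped between the genotypes. ChIP over input averaged 1.5 ± 0.0317 in NIP and 1.49 ± 0.0308 in oschz1 (SD, n = 2). These differed by −0.00992 (exact permutation p 0.667). With peaks of fold at least 2 the difference was −0.106, and with regions of identical extent −0.0329, each oschz1 library then being lower than either NIP library (exact permutation p 0.333). H3 density was 148 ± 3.68 peaks per Mb in NIP and 140 ± 7.90 in oschz1, a difference of −8.57 peaks per Mb or −5.78%, against −2.56% elsewhere (exact permutation p 0.333). It was −14.2 peaks per Mb without oschz1 replicate 1 and −2.98 without oschz1 replicate 2. By replicate number, H3 coverage of the windows was 175 and 166 kb per Mb in NIP and oschz1 replicate 1, and 158 and 149 in replicate 2. The labels name no pairing of these libraries. Between the genotype means H3 coverage differed by −9.07 kb per Mb or −5.44% in the windows, against −2.32% elsewhere, and the libraries overlapped (exact permutation p 0.667). That difference was −0.704 without NIP replicate 1, −17.4 without NIP replicate 2, −17.3 without oschz1 replicate 1 and −0.801 without oschz1 replicate 2. With peaks of fold at least 2 both turned, to 1.57 peaks per Mb and 2.20 kb per Mb. The log2 ratio of pericentromeric to other was lower in each oschz1 than in either NIP library, by −0.05 for density and −0.05 for coverage, each at the smallest exact permutation p of 0.333.

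H2A.Z enrichment divided by H3 enrichment was taken in the 900 pericentromeric H2A.Z regions that held peaks of all 8 libraries. It averaged 1.78 ± 0.00651 in NIP and 1.65 ± 0.0347 in oschz1 (SD, n = 2), which differ by −7.57% (exact permutation p 0.333). In 8369 other regions of the same chromosomes the difference was −8.77%. Each library was counted over its own peaks, so the H2A.Z and H3 values of a region can cover different bases.

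Region by region, the spread of enrichment was wide. Each oschz1 library was lower than either NIP library in ChIP over input in 868 of the 3209 testable pericentromeric H2A.Z regions (27.0%), against 26.6% of all H2A.Z regions of the genome. Each was higher in 380 (11.8%), against 11% of all. For H3 the counts were 781 below (18.4%, against 17.9% of all) and 679 above (16.03%, against 17.3% of all). The median log2 change in H2A.Z ChIP over input was −0.10 in the pericentromeric regions and −0.09 over all regions. Each share was close to that of the genome as a whole.

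ChIP reads in the merged regions were compared between the genotypes by the quasi-likelihood test of edgeR, fitted on all 38145 recurrent H2A.Z regions of the genome. Median depths of the 3209 pericentromeric regions were 262 to 344 ChIP reads and 50 to 64 input reads per library. At an adjusted p of at most 0.05, 28 of them rose in oschz1 (0.873%, against 0.731% of all H2A.Z regions) and 3 fell (0.0935%, against 0.076%). The 28 lay on all 10 chromosomes, at a median distance of 2.07 Mb from the centromere position and none nearer than 0.221 Mb. Both shares were close to the genome-wide shares.

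The regions that rose were mostly regions in which the peak had been called over a longer stretch. In 27 of the 28 both oschz1 libraries covered more bases than both NIP libraries, against 324 of the 3209 (10.1%, with 11.3% over the genome). The 3 that fell were covered less in both, against 164 of the 3209 (5.11%, with 5.06% over the genome). Reads of the 28 had a median log2 change of 1.16, their covered length 1.0 and their ChIP over input 0.06. Reads were counted only inside each library's own peaks, so a change in reads includes a change in extent. Among the 702 pericentromeric regions of identical extent in the 4 libraries, 3 rose and 29 fell (0.427 and 4.13%, against 0.352 and 4.0% of all such regions). Of the 3209, the number that rose moved in both directions when a replicate was left out, which left a single library in a group. None of the 3209 passed with limma on log2 ChIP over input (66 higher and 183 lower at an unadjusted p under 0.05). Nor did any of 4194 by edgeR when a peak was required in at least 2 libraries only (261 higher and 248 lower). For these unadjusted counts the share over all regions was not computed, so they say nothing particular to the pericentromeric regions.

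The largest rise was on chromosome 12 from 9004201 to 9006200, 2.89 Mb from the centromere position. Its H2A.Z level was 5.18 and 6.87 RPM (ChIP reads relative to the total found in peaks) in NIP and 22.1 and 17.6 RPM in oschz1, and it was covered over 600 and 800 bp in NIP and 2000 and 1800 bp in oschz1. The oschz1 libraries were well above the NIP libraries in reads (log2 change 1.73 ± 0.20 SE, edgeR adjusted p 0.00987), but ChIP over input was 1.20 and 2.54 in NIP and 1.41 and 1.44 in oschz1 and overlapped.

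On chromosome 8 from 11024201 to 11028200, 1.87 Mb from the centromere position, H2A.Z stood at 19.7 and 23.0 RPM in NIP and 69.7 and 69.4 RPM in oschz1 (log2 change 1.71 ± 0.08 SE, edgeR adjusted p 0.000178). The peak was called over 1600 and 2000 bp in NIP and over the full 4000 bp in both oschz1 libraries. ChIP over input was 2.38 and 1.92 in NIP and 2.62 and 2.35 in oschz1. The replicates of a genotype were close together in reads and overlapped with the other genotype in ChIP over input.

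The longest of these 3 regions lay on chromosome 2 from 12978001 to 12985600, only 0.618 Mb from the centromere position. H2A.Z stood at 54.8 and 48.8 RPM in NIP and 148 and 153 RPM in oschz1 (log2 change 1.54 ± 0.06 SE, edgeR adjusted p 9.69e-05). Coverage extended from 3800 and 3600 bp in NIP to 7200 and 7600 bp in oschz1. Here ChIP over input was also higher in both oschz1 libraries, 2.80 and 2.59 against 2.23 and 1.95 in NIP.

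The 3 regions that fell were 1200 to 2800 bp wide, where the median region tested was 1200 bp. On chromosome 8 from 13919201 to 13920400, H2A.Z stood at 11.4 and 8.53 RPM in NIP and 3.04 and 2.91 RPM in oschz1 (log2 change −1.75 ± 0.23 SE, edgeR adjusted p 0.0189). Its peak was called over 1200 and 800 bp in NIP and over a single 200 bp window in each oschz1 library, with ChIP over input higher in oschz1, at 2.58 and 4.53 against 1.40 and 1.81. The oschz1 values rest on 10 and 5 input reads.

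On chromosome 2 from 16150001 to 16152800, H2A.Z stood at 22.7 and 29.3 RPM in NIP and 7.57 and 11 RPM in oschz1 (log2 change −1.48 ± 0.20 SE, edgeR adjusted p 0.0202). On chromosome 5 from 10728801 to 10730400 it stood at 26.7 and 25.3 RPM in NIP and 9.52 and 9.96 RPM in oschz1 (log2 change −1.42 ± 0.12 SE, edgeR adjusted p 0.00251). In both, the stretch called in oschz1 was shorter, at 800 bp in each library of the first and 800 and 1000 bp of the second, and ChIP over input overlapped between the genotypes.

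**Figure D5:**
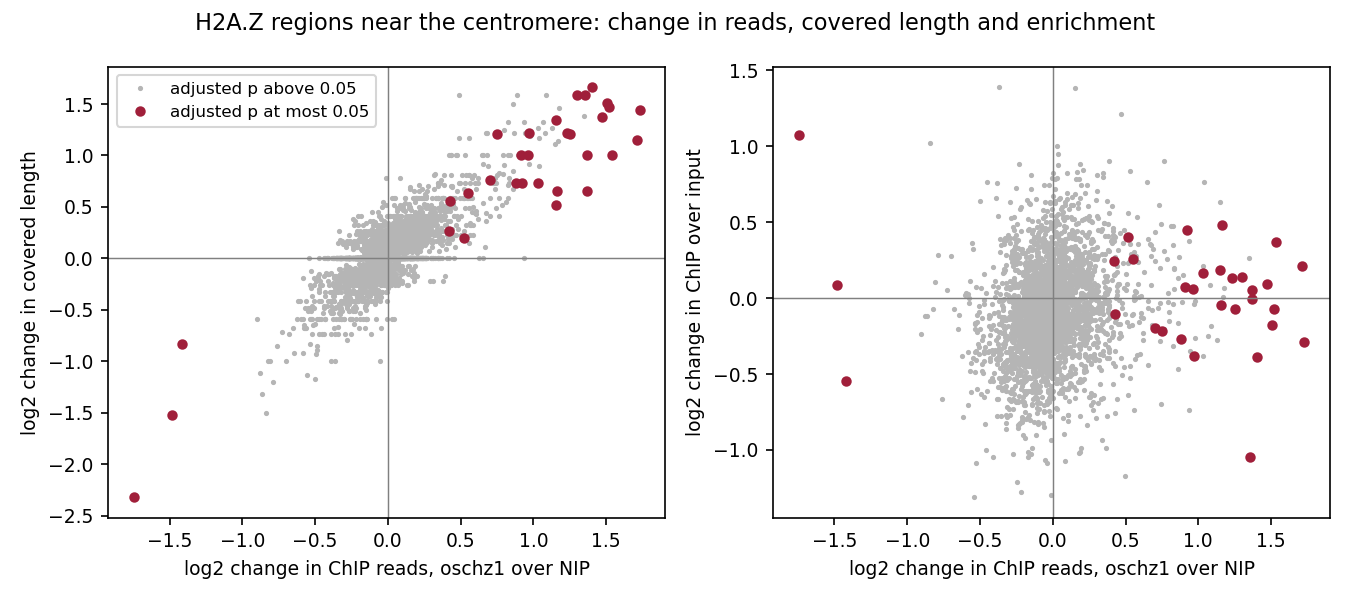
Log2 change of oschz1 over NIP in the 3209 pericentromeric H2A.Z regions found in each of the 4 libraries: ChIP reads (horizontal) against covered length and against ChIP over input (vertical), with the 31 regions that passed the edgeR test as large points. Of the 28 regions that rose in reads, 27 had a longer covered stretch in each oschz1 library, and their ChIP over input lay on either side of 0.

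No pericentromeric H3 region passed the edgeR test in either direction, as was so for all 25169 H3 regions of the genome (0% of all in each direction). At an unadjusted p under 0.05, 231 were higher and 120 lower in oschz1 of 4235. Over the genome 6.1 and 2.05% were. DESeq2 called 12 higher and 16 lower (0.283 and 0.378%, against 0.389 and 0.302% of all), and limma on ChIP over input none (124 higher and 98 lower at an unadjusted p under 0.05). For the unadjusted limma counts the share over all regions was not computed.

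Whether H2A.Z and H3 changed differently was tested by an antibody by genotype interaction in edgeR in the same 900 regions. H2A.Z relative to H3 was higher in 4 regions (0.444%, against 0.387% of all 10852 regions tested) and lower in 8 (0.889%, against 0.608%). In all 4 that were higher both oschz1 libraries had longer H2A.Z peaks, and in all 8 that were lower both oschz1 libraries had longer H3 peaks. Reads were counted only inside each library's own peaks, so a change in reads includes a change in extent. The share of all tested regions with such longer peaks was not computed. No region passed by edgeR with the libraries that shared an input as a block, an alternative chosen after seeing the data (23 higher and 70 lower at an unadjusted p under 0.05), by limma on ChIP over input (3 and 22), or without any single replicate of NIP or oschz1. The median log2 change over all 10852 regions was −0.12, and 0.03 with the scaling of DESeq2, which called 21 higher and 20 lower of the 900 (2.33 and 2.22%, against 2.99 and 2.59% of all). TMM factors gave 5 and 6 (0.556 and 0.667%, against 0.673 and 0.488%). For the unadjusted counts given here the share over all regions was not computed.

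The region on chromosome 8 from 11024201 to 11028200 had the largest rise relative to H3 (log2 change 2.02 ± 0.15 SE, edgeR adjusted p 0.0131). It held 437 and 389 H2A.Z reads in NIP and 1400 and 1288 in oschz1, but 654 and 486 H3 reads in NIP and 558 and 349 in oschz1. The largest fall was on the same chromosome from 15717601 to 15719200 (log2 change −2.06 ± 0.23 SE, edgeR adjusted p 0.0176). There the H2A.Z reads were 329 and 270 in NIP and 259 and 312 in oschz1, whereas the H3 reads went from 68 and 48 in NIP to 287 and 176 in oschz1. That H3 peak was called over 200 bp in each NIP library and over 1400 and 1200 bp in oschz1. The former region moved in its H2A.Z reads and the latter in its H3 reads.

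The widest pericentromeric H2A.Z region lay on chromosome 3 from 18152601 to 18162400 and measured 9.8 kb. It stood at 95.9 and 91.8 RPM in NIP and 91.1 and 84.2 RPM in oschz1, with ChIP over input at 2.28 and 2.05 in NIP and 2.18 and 2.14 in oschz1. The next in width, 8.6 kb on chromosome 3 from 17258201 to 17266800 and 8.4 kb on chromosome 12 from 13430601 to 13439000, likewise did not pass the test, with edgeR adjusted p of 0.998 and 0.746.

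The widest H3 region was larger, 14.8 kb on chromosome 9 from 2565801 to 2580600 and 0.227 Mb from the centromere position. It stood at 227 and 240 RPM in NIP and 236 and 254 RPM in oschz1. The next, 14.4 kb on chromosome 6 from 17228001 to 17242400, stood apart between the genotypes, at 212 and 221 RPM in NIP and 109 and 79.7 RPM in oschz1. It was called over 13200 and 13000 bp in NIP and over 6600 and 4200 bp in oschz1, yet its log2 change of −1.19 ± 0.17 SE did not pass (edgeR adjusted p 0.242). The next, 14.0 kb on chromosome 3 from 20729201 to 20743200, was level between the genotypes (log2 change 0.14 ± 0.13 SE, edgeR adjusted p 0.793).

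The regions with the highest ChIP over input rested on few input reads. For H2A.Z the highest mean was on chromosome 11 from 14250401 to 14250600, where values of 8.36 and 3.46 in NIP and 4.48 and 13.01 in oschz1 had 3, 9, 5 and 2 input reads. On chromosome 11 from 12674201 to 12675400 the input counts were larger, 80 and 70 in NIP and 50 and 33 in oschz1, and ChIP over input was 3.68 and 3.92 in NIP and 4.90 and 7.12 in oschz1. This region lay 0.675 Mb from the centromere position, just beyond the long H2A.Z-free stretch, and its edgeR adjusted p for reads was 0.308. For H2A.Z on chromosome 1 from 18730601 to 18731200, values were 2.71 and 9.60 in NIP and 4.21 and 4.91 in oschz1. For H3 the highest, on chromosome 7 from 9446601 to 9447800, reached 42.5 in NIP replicate 1 over a single input read and 2.31 to 2.92 in the other libraries. The H3 regions on chromosome 12 from 13888601 to 13890400 and on chromosome 11 from 13115601 to 13116000 each owed their rank to a single oschz1 library with 1 and 4 input reads.

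The recurrent regions nearest to each centromere position had ordinary enrichment. The nearest H2A.Z region was 0.9 to 187 kb away, with a median of 15.1 kb over the 10 chromosomes and a mean ChIP over input of 1.80 to 3.09. The nearest H3 region was 2 to 81.1 kb away, with a median of 5.6 kb and a ChIP over input of 1.35 to 2.03. None of these 20 regions passed the test between the genotypes. In 5 of the 10 H2A.Z regions ChIP over input was lower in both oschz1 libraries and in none was it higher in both, while 1 of the 10 H3 regions was lower and 4 were higher. Over all recurrent regions of the genome, 26.6% were lower and 11% higher for H2A.Z, and 17.9 and 17.3% for H3. Counts among 10 regions are too few to tell from these shares.

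The closest H2A.Z region, on chromosome 12 from 11900601 to 11901200, stood at 9.01 and 8.82 RPM in NIP and 5.53 and 7.05 RPM in oschz1, both oschz1 libraries being the lower (log2 change −0.50 ± 0.20 SE, edgeR adjusted p 0.375). The farthest, on chromosome 7 from 11912001 to 11914000, bordered the stretch of 411 kb named above. It stood at 15.8 and 11.4 RPM in NIP and 12.95 and 15.5 RPM in oschz1, which overlapped.

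At the 3 Mb limit, the last H2A.Z region inside lay on chromosome 11 from 9000401 to 9001200, with a mean ChIP over input of 1.60, and the first outside on chromosome 5 from 9397001 to 9398400, with 2.31. For H3 the last inside lay on chromosome 3 from 22399201 to 22400800, with 1.9, and the first outside on chromosome 8 from 15899401 to 15901200, with 1.61.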

How the data were processed

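ChIP-seq was done with antibodies against H2A.Z and H3 on seedlings of NIP and oschz1, 8 ChIP libraries in all, with 4 inputs. Per the labels and the study's methods, reads were mapped by the authors to the MSU rice genome with Bowtie2, reads of mapping quality under 20 and PCR duplicates were removed with SAMtools, and peaks were called in each library against input with SICER (window 200 bp, gap 200 bp, false discovery rate 0.05). The caller is stated for H2A.Z, and the H3 tables have the same layout. The deposited tables, an entry per peak, give counts of ChIP reads and of input reads (raw), and, as the authors' caller wrote them, the p-value, the q-value and the ChIP fold against input. Positions are on that genome and count from 1. Repeats keep fewer reads under such a mapping filter, and reads outside peaks were not analysed here. No genome of the same build was at hand, so neither sequences nor genes are given.

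The fold is the ChIP to input ratio divided by a constant for the library, which was recovered from the file and used to scale the input. Overlapping or touching peaks of the 4 libraries of an antibody were merged, and chromosome length was taken as the end of the last peak. Values per library were tested by exact permutation, two-sided. Region counts were tested with edgeR 4.0.16 in R 4.3.3 over all regions of the genome, with reads in peaks as library size and Benjamini-Hochberg adjustment. Scripts were tested on simulated data. Alternatives were windows of 2 and 4 Mb, TMM factors, recovered library sizes, DESeq2 1.42.0, limma 3.58.1 on log2 ChIP over input with a pseudocount of 0.5, at least 50 reads, peaks in at least 2 libraries, regions of the same extent, q-values of at most 1e-10, folds of 2 or more only, merging peaks under 600 bp apart, all peaks of each library, leaving out chromosome 9 or each replicate, and the replicate number as a block. Same-extent regions with recovered sizes and the shared-input block were added after seeing the data.

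The regions named were, per antibody, the 3 largest rises and falls past the threshold, the 3 widest, the 3 with the highest ChIP over input and the region nearest to each centromere position, among those with a peak in all 4 libraries. The interaction regions named, the largest in each direction, the long gaps and the bins described were chosen after their values were seen. The members and lists were chosen with earlier results of these data known. Centromere positions were given with the selection rule and were not derived from these data.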

Additional observations from a re-analysis of the deposited data

Results flagged for a closer look

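Peak density, coverage and width differed between the pericentromeric windows and the rest of the chromosomes in opposite directions for the 2 antibodies, with all 4 H2A.Z libraries below and all 4 H3 libraries above a ratio of 1. The difference of the log2 ratios, H2A.Z minus H3, was −1.17 for peaks per Mb, −1.62 for covered kb per Mb and −0.45 for mean peak width (exact permutation p 0.0286 each, 0.267 after adjustment over 28 comparisons).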

How the results depend on the processing

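Of 182 library-level values recomputed under other filters and windows, 155 kept their direction and side of the threshold. Within 1 antibody the smallest possible exact permutation p was 0.125 or 0.333, so for those values only the direction could change. The exceptions follow, and their cause was not tested. With q-values of at most 1e-10, oschz1 minus NIP in pericentromeric H2A.Z peaks per Mb was −1.29, the genotype difference in the log2 ratio of pericentromeric to other was −0.0031 for H2A.Z density, −0.0074 for H2A.Z coverage and −0.030 for H3 width, H3 width differed by −72.3 bp and H3 ChIP over input by 0.0045, and the log2 ratio of ChIP over input was 0.015 for H2A.Z, −0.015 for H3 and 0.030 for H2A.Z minus H3. With a fold of at least 2 the genotype differences were −0.106 in H3 ChIP over input (−0.0329 with regions of the same extent, against −0.00992), −3.99 H2A.Z peaks per Mb, −3.09 kb per Mb of H2A.Z coverage, −0.00061 in its log2 ratio, 1.57 H3 peaks per Mb and 2.20 kb per Mb of H3 coverage, and the log2 ratios of ChIP over input were 0.022, −0.0020 and 0.024 in that order. A window of 2 Mb gave −0.0023 for the H3 width and −0.0070 for the H3 ChIP over input log2 ratio. Joining peaks gave 0.00084 and −0.0016 for the width ratio of H2A.Z and H3 and −2.43 bp for H3 width. Leaving out chromosome 9 gave −0.0011 for the H3 width ratio. All peaks of each library gave 0.0026 for the H3 ChIP over input difference and −0.031 for H2A.Z minus H3 in its log2 ratio (exact permutation p 0.0286), and regions of the same extent gave 0.00015 for the H2A.Z log2 ratio and −0.051 for H2A.Z minus H3.

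Pericentromeric H2A.Z regions called higher and lower, 28 and 3, became 12 higher in a window of 2 Mb (0.608%, against 0.731% of all regions), 73 and 12 by DESeq2 (2.27 and 0.374%, against 1.88 and 0.32%), 0 and 0 with a peak in at least 2 libraries or by limma, 3 and 29 with the same extent (0.427 and 4.13%, against 0.352 and 4.0%), and 3 and 87 when recovered library sizes were added to that (0.427 and 12.4%, against 0.295 and 12.2%). H3 calls, 0 and 0, became 12 and 16 by DESeq2 (0.283 and 0.378%, against 0.389 and 0.302%), 3 higher with the same extent (0.47%, against 0.803%), and 3 and 4 with recovered sizes as well (0.47 and 0.627%, against 1.04 and 0.637%). Interaction calls, 4 and 8, became 2 and 3 in a window of 2 Mb (0.358 and 0.537%, against 0.387 and 0.608%), 21 and 20 by DESeq2 (2.33 and 2.22%, against 2.99 and 2.59%), 0 and 1 of 29 with the same extent (0 and 3.45%, against 0 and 6.45%), and 0 and 0 with the shared-input block or limma.

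Region by region, the deviations of same-numbered libraries from their genotype means were nearly uncorrelated (correlation −0.012 for H2A.Z and −0.00065 for H3). This check cannot see a shift common to a whole library, and replicate 1 had the higher H3 coverage in both genotypes. The replicate block gave 23 and 3 H2A.Z calls (0.717 and 0.0935%, against 0.566 and 0.0393% of all regions). It gave 0 and 0 H3 calls, as over all H3 regions, and 3 and 3 interaction calls (0.333 and 0.333%, against 0.175 and 0.249%). With a replicate left out, H2A.Z calls ranged from 14 (without oschz1 replicate 2) to 38 higher and from 3 to 5 (without oschz1 replicate 1) lower, H3 calls were 0, and interaction calls 0 in both directions. H2A.Z minus H3 ranged from −1.19 to −1.15 for density, −1.63 to −1.60 for coverage and −0.45 to −0.44 for width, where the exact permutation p cannot go below 0.1. The genotype difference ranged from −1.15 to 2.53 H2A.Z peaks per Mb, 2.78 to 6.77 kb per Mb of H2A.Z coverage, −14.2 to −2.98 H3 peaks per Mb, −17.4 to −0.704 kb per Mb of H3 coverage, −32.6 to 40.9 bp for H3 width and −0.0323 to 0.0125 for H3 ChIP over input, the difference in log2 width ratio from −0.0115 to 0.00064 for H2A.Z and −0.0158 to 0.0197 for H3, and the H3 log2 ratio of ChIP over input from −0.00029 to 0.0064.

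With 2 libraries a group, the exact permutation test used for library-level genotype differences cannot give a p below 0.333. Reads in peaks were fewer in replicate 2 of each genotype, and the part of depth in peak counts and extents was not tested.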
